A study of Homo sapiens with 9 samples.

Results

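The 35 genes described here serve DNA repair and its checkpoints, and were chosen by name from 27059 genes listed in the deposited table. They comprise 5 mismatch repair genes, 10 genes of homologous recombination, 4 Fanconi anaemia genes, 4 damage signalling kinases, 6 end joining genes and 6 genes of excision and single-strand break repair. All 35 passed the filter on low counts, with 164 to 11372 estimated counts per library. RNA was sequenced from PC9/GR, a human lung adenocarcinoma line that resists gefitinib, an inhibitor of the EGF receptor kinase. Libraries came in 3 groups of 3: cells with the hairpin sh1-HUMT, cells with the hairpin sh2-HUMT, both designed against the long noncoding RNA HUMT, and control cells with shNC. No drug is named for any group, and the labels do not say how hairpins were delivered, whether cells were cloned or whether replicates were separate cultures, so p-values measure the spread between these libraries, which may be technical.

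Mismatch repair removes bases misplaced in replication, homologous recombination copies an intact sister strand into a broken one, and end joining seals breaks directly. Excision repair cuts out damaged bases or bulky adducts, and the Fanconi pathway unhooks crosslinks between strands. In tumour cells these pathways bear on the response to platinum drugs and to PARP inhibitors, and several of their genes are most active in S phase.

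Library totals were 21891060 to 22159921 estimated counts. In the table itself the columns carry the name of a different lung cancer line, A549, and Si where the labels have sh. Most sample titles of the hairpin groups spell the target HUNT, which is read here as HUMT. That the cells are PC9/GR rests on the labels. The gene counted for HUMT, LINC00857, was not lower in the libraries labelled as knockdowns: it differed from shNC by 0.06 in log2 in those labelled sh1-HUMT (adjusted p = 0.685, edgeR) and by -0.05 in those labelled sh2-HUMT (adjusted p = 0.740). All directions here are therefore differences between libraries as labelled. CPM is a count scaled to library size. All 5 epithelial markers were counted, with KRT8 at 1488, 1517 and 1718 CPM in libraries labelled sh1-HUMT, sh2-HUMT and shNC but EPCAM at 7.90, 8.95 and 9.82 CPM. Their summed level was 2810 to 2978, 2923 to 2948 and 3296 to 3482 CPM in the same 3 groups. KRT8, KRT18 and KRT19 fell in both hairpin groups and EPCAM in sh1-HUMT, while CDH1 rose, with 128, 127 and 102 CPM. Of 5 leukocyte markers 2 passed the filter, summing to 48.5 to 51.5, 52.2 to 53.0 and 61.6 to 65.7 CPM. Of these CD68 was lower by a log2 fold change of -0.49 and -0.42, while the other had 0.07 and 0.20, neither past the test. PTPRC had at most 5 counts. Of 6 fibroblast markers 3 passed the filter, summing to 21.8 to 22.7, 24.5 to 26.2 and 16.3 to 20.6 CPM, with COL1A1 higher by 0.28 and 0.48. The 3 values ran from -0.29 to 0.38 in sh1-HUMT and from -0.19 to 0.86 in sh2-HUMT. In each group 1 of the 3 was below 0 and 1 passed the test. DCN and LUM had at most 1 and 2 counts. Of 4 endothelial markers PECAM1 alone passed the filter, at 1.08 to 2.06, 1.75 to 1.99 and 0.894 to 0.941 CPM, and was higher by 0.87 and 1.001, while VWF, CDH5 and KDR had at most 13, 3 and 6 counts. The part of these markers in the values of the repair genes was not tested. In RNA from whole cultures, a lower share of cells expressing a gene and less RNA per cell cannot be told apart.

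The windows around the transcription starts of 4 genes are shown because these genes had the largest rises (CHEK1, XPC), the smallest rise (PARP1) and the fall (ERCC1) among genes that passed the test in both hairpin groups, outside chromosomes that are not printed. Each runs from 250 bases before to 50 bases after a start given by RefSeq (GRCh38.p14), read 5′ to 3′ on the gene's strand. Capitals mark matches on either strand to an E2F site (TTTCGCGC, TTTGGCGC or TTTCCCGC) or a CCAAT box (CCAAT). The windows lie at chr11:125625979-125626278 (plus strand, CHEK1), chr3:14178552-14178851 (minus strand, XPC), chr1:226408044-226408343 (minus strand, PARP1) and chr19:45423479-45423778 (minus strand, ERCC1).
CHEK1: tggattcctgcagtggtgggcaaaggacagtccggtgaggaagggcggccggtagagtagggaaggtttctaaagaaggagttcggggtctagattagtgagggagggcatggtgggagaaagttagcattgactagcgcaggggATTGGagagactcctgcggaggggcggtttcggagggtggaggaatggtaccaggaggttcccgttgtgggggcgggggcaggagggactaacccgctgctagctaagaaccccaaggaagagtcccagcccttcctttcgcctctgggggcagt
XPC: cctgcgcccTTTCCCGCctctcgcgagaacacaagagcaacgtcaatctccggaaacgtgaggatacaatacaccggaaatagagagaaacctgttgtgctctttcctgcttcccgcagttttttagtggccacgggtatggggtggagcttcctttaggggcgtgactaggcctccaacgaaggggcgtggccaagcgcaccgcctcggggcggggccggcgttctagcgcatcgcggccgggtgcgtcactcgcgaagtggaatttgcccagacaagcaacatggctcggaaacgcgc
PARP1: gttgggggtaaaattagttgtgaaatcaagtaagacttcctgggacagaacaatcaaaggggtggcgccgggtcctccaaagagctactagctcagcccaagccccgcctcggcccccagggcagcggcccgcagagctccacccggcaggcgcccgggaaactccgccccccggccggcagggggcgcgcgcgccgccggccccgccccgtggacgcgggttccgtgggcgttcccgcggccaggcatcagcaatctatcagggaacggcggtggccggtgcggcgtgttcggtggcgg
ERCC1: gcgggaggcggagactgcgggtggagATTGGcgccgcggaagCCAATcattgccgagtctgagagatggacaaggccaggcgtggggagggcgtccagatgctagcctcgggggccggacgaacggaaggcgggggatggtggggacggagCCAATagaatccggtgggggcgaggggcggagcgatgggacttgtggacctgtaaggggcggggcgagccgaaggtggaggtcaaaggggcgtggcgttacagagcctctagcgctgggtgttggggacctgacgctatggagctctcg

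E2F factors drive genes of the G1/S transition, and NF-Y, which binds CCAAT boxes, serves many cell cycle genes. In the windows shown, CHEK1 had 1 CCAAT box 105 bases before its start, XPC 1 E2F match 241 bases before, ERCC1 3 CCAAT boxes, and PARP1 no match to these letters, and no matches overlapped. CHEK1 and ERCC1 each have 3 windows in RefSeq. The one shown has the largest number of annotated coding transcripts starting within 100 bases, or is the first listed where several are level. That number was 1 of 14 coding transcripts for CHEK1 and 4 of 12 for ERCC1, so neither window need be the main start. Of the windows not shown, those of CHEK1 held 3 and 1 CCAAT boxes and those of ERCC1 0. RefSeq windows were found for 30 of the 35 genes, 46 windows in all. E2F letters were in 7 of the 46 (15.2%), against 2.74% of all 35116 windows of this length, and lay near MSH3, MSH6, EXO1, FANCD2, XPC, XRCC2 and XRCC6. CCAAT was in 24 of 46 (52.2%), against 34.6% of all windows. The letters TTTGAA, the CHR element bound by regulators of mitotic genes, were in 4 of 46 (8.70%), against 15.2%. Of the 7 genes with E2F letters, MSH6, XPC and XRCC2 passed the test in both hairpin groups and the other 4 in neither. Of all genes tested 25.1% passed the same way in both, and 35.6% of those with at least 8 CPM, and with 7 genes this count lies near those shares. A match is a description of letters and not a bound site.

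Levels spanned a wide range. On the deposited expression scale, taken here to be FPKM, the Ku subunit genes XRCC5 and XRCC6 stood highest in shNC libraries, at 115 ± 1.88 and 94.5 ± 2.38 FPKM (SD, n = 3), followed by ERCC1 at 63.7 ± 1.11, PRKDC at 38.2 ± 1.18 and PARP1 at 34.0 ± 0.359 FPKM. The lowest were FANCM at 1.26 ± 0.0551, BRCA2 at 1.48 ± 0.219 and BRIP1 at 1.84 ± 0.176 FPKM, and the gap between FANCM and BRCA2 was about the SD of BRCA2. The 4 kinases lay between these, from 3.90 FPKM for ATR to 10.9 FPKM for CHEK2. MSH6 stood above its mismatch repair partners in every group, at 28.9 ± 0.211 FPKM in sh1-HUMT, 27.8 ± 0.333 in sh2-HUMT and 24.0 ± 0.582 in shNC libraries, against 5.24 to 8.14 FPKM for the group means of the other 4 in shNC.

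**Figure D1:**
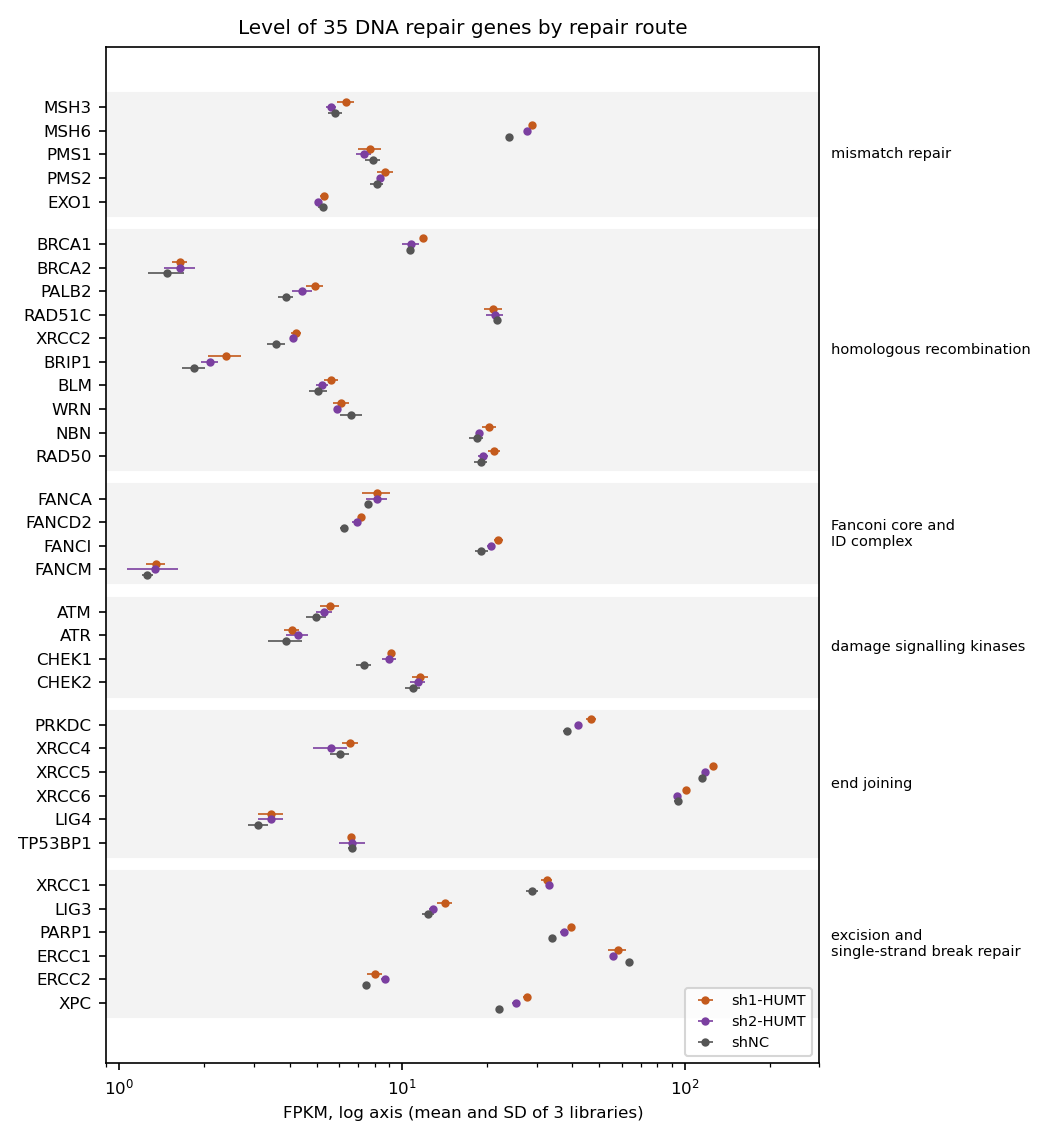
Level of each gene in FPKM on a log axis, with points for the mean and bars for the SD of 3 libraries, by hairpin group and grouped by repair route. The Ku genes XRCC5 and XRCC6 stand near 100 FPKM and FANCM near 1, and differences between groups are small beside differences between genes.

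In libraries labelled sh1-HUMT, 16 of the 35 genes passed the test (45.7%), 15 higher and 1 lower, where 31.9% of all 18540 genes tested did, 15.7% higher and 16.3% lower. In libraries labelled sh2-HUMT, 10 passed (28.6%), 7 higher and 3 lower, against 32.5% of all genes, 15.9% higher and 16.5% lower. The test was edgeR's quasi-likelihood test, with p-values adjusted over all genes by Benjamini-Hochberg and a threshold of 0.05. All 35 genes averaged at least 8 CPM, and among the 11462 genes at that level or above, a background chosen after the data were seen, 44.2% and 44.7% passed for sh1-HUMT and sh2-HUMT, 21.0% and 20.8% higher. In the sh2-HUMT libraries the share of repair genes that passed was therefore no larger than that of genes at large, and in sh1-HUMT it was close to that of genes of like level, with more of the calls upward.

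MSH6, PRKDC, XPC, PARP1, CHEK1 and XRCC2 were higher and ERCC1 lower in both hairpin groups. These are 7 of 35 genes (20.0%), where 25.1% of all genes tested passed the same way in both, and 35.6% of those with at least 8 CPM. Both comparisons share the shNC libraries. A further 9 genes passed for sh1-HUMT and missed the threshold for sh2-HUMT, 3 did the reverse, and 16 passed in neither. The changes were small, the largest being 35.7% for PALB2, and 3 genes in sh1-HUMT and 0 in sh2-HUMT passed with at least a 1.2-fold change, which 17.9% and 18.5% of all genes did. The median log2 fold change of the 35 was 0.11 for sh1-HUMT and 0.05 for sh2-HUMT, beside medians of 0.00 over all genes. With an offset for GC content and transcript length these medians were 0.07 and 0.04. Of the 35 values, 28 were above 0 in sh1-HUMT and 25 in sh2-HUMT. The 3 sh1-HUMT libraries all lay beyond the 3 shNC libraries for 22 genes (62.9%; 44.3% of all genes), and the sh2-HUMT libraries for 14 (40.0%; 46.5% of all genes).

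**Figure D2:**
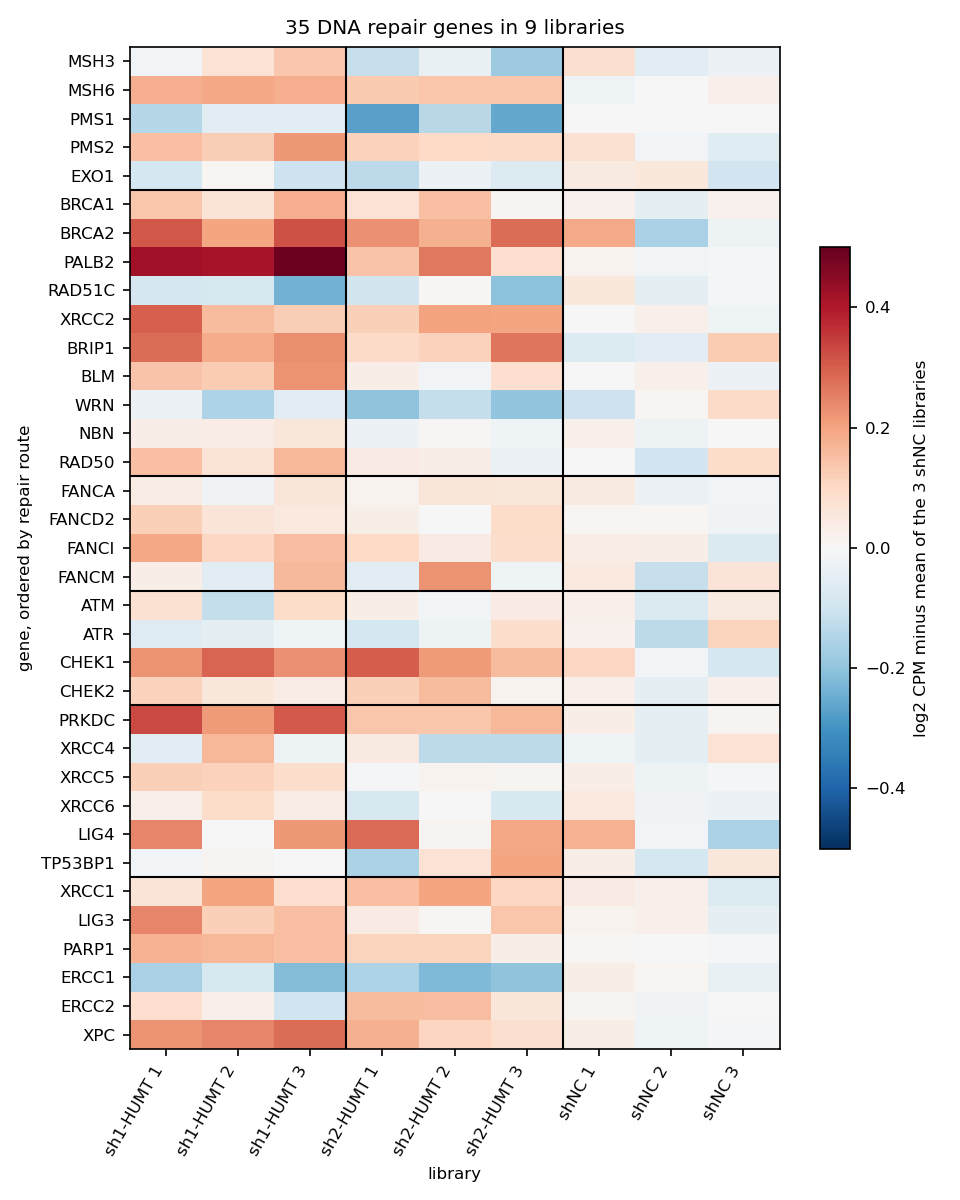
Each gene (rows, by repair route) in each library (columns), as log2 CPM minus the mean of the 3 shNC libraries, red above and blue below. Rows for MSH6, PRKDC, XPC, PARP1, CHEK1 and XRCC2 are red in the 6 hairpin libraries, and ERCC1 is blue.

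Among the mismatch repair genes, MSH6 was higher in both hairpin groups and PMS1 lower in sh2-HUMT. MSH6, the partner that lets the MutS heterodimer see single mismatches, had 133, 134 and 133 CPM in sh1-HUMT libraries, 129, 129 and 129 CPM in sh2-HUMT libraries, and 116, 117 and 119 CPM in shNC libraries. No hairpin library overlapped the controls. Against shNC the log2 fold change of MSH6 was 0.18 in sh1-HUMT (95% interval 0.13 to 0.24, adjusted p = 1.55e-04) and 0.14 (0.08 to 0.19, adjusted p = 0.00139) in sh2-HUMT. With an offset for GC content and transcript length the sh1-HUMT value was 0.12 (adjusted p = 0.00361). FBXO11 on the opposite strand overlaps 16.2% of the exonic bases of MSH6 in the GENCODE annotation and had 0.08 and 0.06, neither past the test. PMS1, a MutL-type subunit with no settled role in human cells, had 32.4, 34.4 and 34.5 CPM in sh1-HUMT, 29.7, 32.5 and 30.0 CPM in sh2-HUMT, and 35.8 CPM in each shNC library. It fell by 0.22 on the log2 scale in sh2-HUMT (adjusted p = 0.00363), and in sh1-HUMT the value was -0.08 (adjusted p = 0.201).

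PMS2, the MutL endonuclease subunit, was higher in sh1-HUMT, at 31.3, 30.7 and 32.8 CPM against 29.8, 28.0 and 27.0 CPM in shNC libraries, a log2 fold change of 0.16 (adjusted p = 0.0206). In sh2-HUMT the PMS2 value was 0.10 (adjusted p = 0.129). This gene has pseudogene copies among which reads can be split, so its values are uncertain, and the sh1-HUMT call was lost without sh1-HUMT replicate 3, shNC replicate 2 or shNC replicate 3 (adjusted p 0.0827, 0.0602 and 0.0746). With an offset for GC content and transcript length, PMS2 passed in sh2-HUMT as well, at 0.14 (adjusted p = 0.0374). MSH3, the partner for larger loops, had values of 0.06 and -0.11 in sh1-HUMT and sh2-HUMT, and EXO1, the exonuclease that removes the faulty strand, -0.06 and -0.08. None of these 4 values passed. The median of the 5 genes was 0.06 in sh1-HUMT and -0.08 in sh2-HUMT.

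Homologous recombination held the largest single change. In sh1-HUMT 6 of its 10 genes passed, all higher, with a median of 0.15. Of all genes tested 31.9% passed there, 15.7% higher, and of those with at least 8 CPM 44.2% did, 21.0% higher. In sh2-HUMT 1 gene of this route was higher and 1 lower, with a median of 0.06. PALB2, which links BRCA1 to BRCA2 at breaks, had 22.9, 22.8 and 24.1 CPM in sh1-HUMT libraries, 18.9, 20.6 and 18.2 CPM in sh2-HUMT libraries, and 17.4, 17.0 and 17.1 CPM in shNC libraries. All 6 hairpin libraries lay above the controls, and the sh1-HUMT libraries above all of sh2-HUMT. Its log2 fold change was 0.44 (0.31 to 0.57, adjusted p = 1.78e-04) in sh1-HUMT and 0.17 (0.03 to 0.30, adjusted p = 0.0595) in sh2-HUMT. The sh2-HUMT value of PALB2 passed without sh2-HUMT replicate 3 (adjusted p = 0.0415), with upper-quartile normalization (0.0367) and with the offset for GC content and length (0.0312).

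XRCC2, a paralogue of the recombinase that helps build its filament, had 25.6, 23.2 and 22.6 CPM in sh1-HUMT, 22.6, 23.9 and 23.8 CPM in sh2-HUMT, and 20.7, 21.1 and 20.5 CPM in shNC libraries. All 6 hairpin libraries lay above the controls. Its log2 fold change was 0.19 in sh1-HUMT (adjusted p = 0.0242) and 0.17 in sh2-HUMT (adjusted p = 0.0409). For sh1-HUMT the call was lost without sh1-HUMT replicate 1, shNC replicate 1 or shNC replicate 3 (adjusted p 0.0560 to 0.0951). For sh2-HUMT it was lost without sh2-HUMT replicate 2 or 3 or any 1 of the 3 shNC libraries (0.0561 to 0.109), with DESeq2 (0.0683) and with no filter on low counts (0.0539).

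BRCA1, the ubiquitin ligase that promotes resection, had 61.6, 58.6 and 63.4 CPM in sh1-HUMT, 58.8, 62.1 and 56.5 CPM in sh2-HUMT and 56.8, 54.2 and 56.8 CPM in shNC libraries, a log2 fold change of 0.13 in sh1-HUMT (adjusted p = 0.0471) and 0.08 in sh2-HUMT (adjusted p = 0.209). BRCA2, which loads the recombinase onto single strands, had 12.6, 11.7 and 12.7 CPM in sh1-HUMT, 11.9, 11.5 and 12.4 CPM in sh2-HUMT and 11.6, 9.12 and 10.0 CPM in shNC libraries. Its values were 0.27 (adjusted p = 0.0437) and 0.22 (adjusted p = 0.0900). The sh1-HUMT libraries of both genes lay above all controls, while the sh2-HUMT libraries overlapped them. BLM, a helicase that dissolves crossover intermediates, rose by 0.17 in sh1-HUMT (adjusted p = 0.0381), where its libraries lay above the controls, and had 0.04 in sh2-HUMT (adjusted p = 0.679). RAD50, the tether in the MRN complex that senses breaks, rose by 0.13 in sh1-HUMT (adjusted p = 0.0468) although 145 CPM in a sh1-HUMT library lay below 147 CPM in a shNC library, and had 0.01 in sh2-HUMT.

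These 4 calls in sh1-HUMT were not stable. BRCA1 lost its call without sh1-HUMT replicate 1 or 3, sh2-HUMT replicate 1 or any 1 shNC library (adjusted p 0.0633 to 0.157) and with the GC and length offset (0.303). BRCA2 lost it without sh1-HUMT replicate 1 or 3, any 1 sh2-HUMT library, or shNC replicate 2 or 3 (0.0524 to 0.148), and with the offset (0.121), DESeq2 (0.0574), no filter (0.0524) or only the groups compared (0.0654). BLM lost it without sh1-HUMT replicate 1 or 3, sh2-HUMT replicate 1 or any 1 shNC library (0.0519 to 0.132), and with the offset (0.0703), DESeq2 (0.0869), no filter (0.0582) or only the groups compared (0.0568). RAD50 lost it without sh1-HUMT replicate 1 or 3, any 1 sh2-HUMT library, or shNC replicate 1 or 2 (0.0511 to 0.147), and with the offset (0.379) or only the groups compared (0.0663). Another gene typed as protein coding on the same strand covers 79.7% of the exonic bases of RAD50 in the GENCODE annotation. The deposited table has no entry under its name, so whether any reads were split between them is not known. Conversely, BRCA2 passed in sh2-HUMT without shNC replicate 1, at 0.33 (adjusted p = 0.0204).

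WRN, a helicase and exonuclease that protects stalled forks, was the gene of this route that was lower in sh2-HUMT. It had 28.9, 26.5 and 28.5 CPM in sh1-HUMT, 25.7, 27.2 and 25.7 CPM in sh2-HUMT and 27.5, 29.7 and 31.5 CPM in shNC libraries, so that the sh2-HUMT libraries lay below all controls and the sh1-HUMT libraries overlapped them. It fell by 0.17 on the log2 scale in sh2-HUMT (adjusted p = 0.0391), and the sh1-HUMT value was -0.08 (adjusted p = 0.334). The WRN call was lost without any 1 sh2-HUMT library or shNC replicate 2 or 3 (adjusted p 0.0529 to 0.167), with DESeq2 (0.0509) and with upper-quartile normalization (0.0627). BRIP1, a helicase partner of BRCA1, had values of 0.23 in sh1-HUMT (adjusted p = 0.0501) and 0.16 in sh2-HUMT (adjusted p = 0.170). The sh1-HUMT value of BRIP1 passed without sh2-HUMT replicate 3 (0.0489), without shNC replicate 3 (0.0270), with upper-quartile normalization (0.0364), with a mean count of at least 10 (0.0490) and without the 2 most abundant entries (0.0470). RAD51C, another paralogue of the recombinase, had -0.13 and -0.09 in sh1-HUMT and sh2-HUMT, and NBN, the adaptor of the MRN complex, 0.04 and -0.02, and none of these passed.

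**Figure D3:**
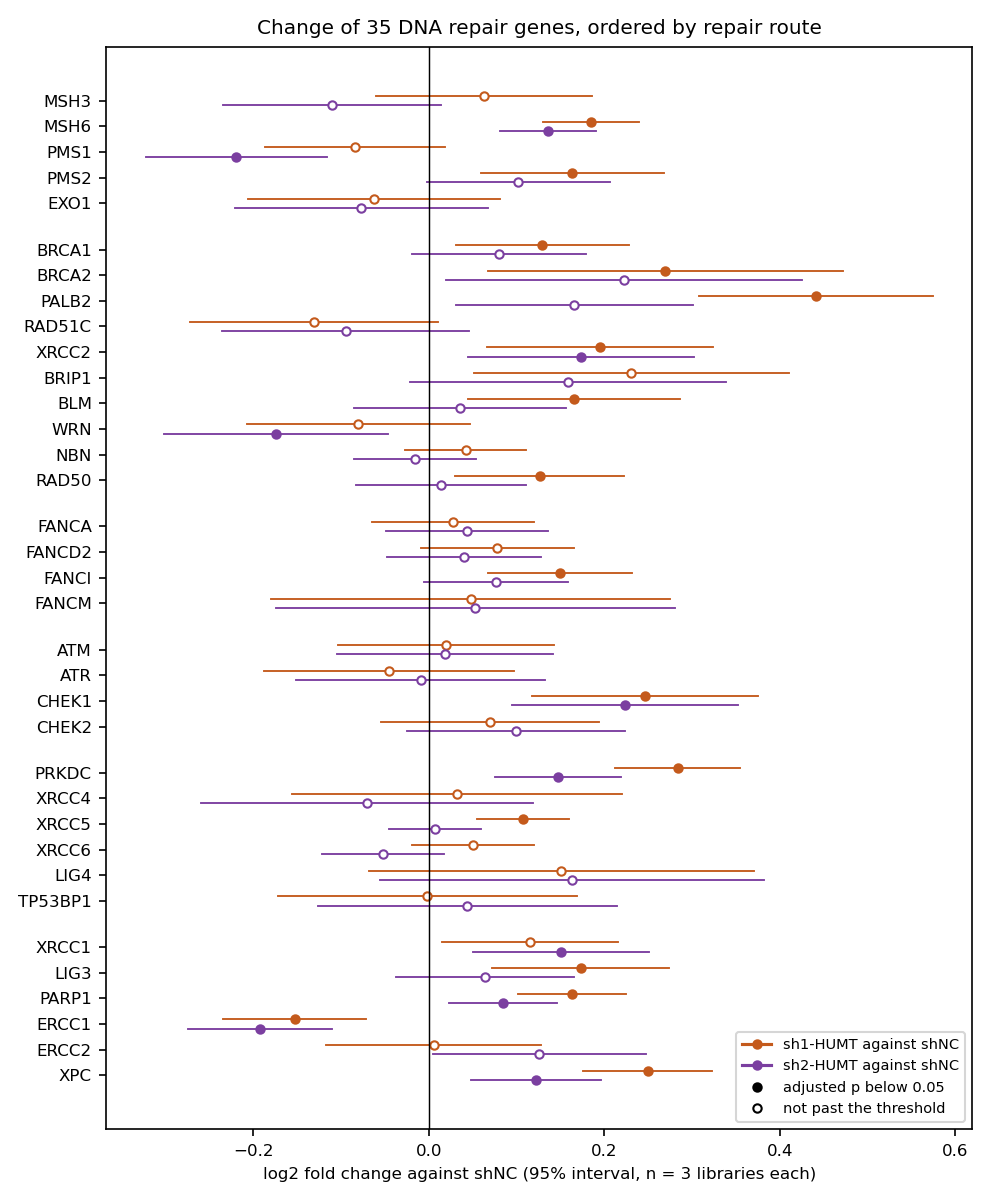
Log2 fold change of each gene against shNC with its 95% interval, sh1-HUMT above sh2-HUMT within each gene, filled where adjusted p was below 0.05. PALB2 in sh1-HUMT has the largest value at 0.44, and PMS1 in sh2-HUMT the lowest at -0.22.

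Of the Fanconi genes, FANCI was the 1 that passed the test, in the sh1-HUMT comparison. FANCI, which with FANCD2 forms the clamp placed on DNA at crosslinks, had 114, 107 and 111 CPM in sh1-HUMT, 107, 102 and 106 CPM in sh2-HUMT and 102, 102 and 94.6 CPM in shNC libraries. All 6 hairpin libraries lay above the controls, the closest by less than 1 CPM. Its log2 fold change was 0.15 in sh1-HUMT (0.07 to 0.23, adjusted p = 0.00913) and 0.08 in sh2-HUMT (adjusted p = 0.147), and the difference between the hairpins, -0.07, did not pass (adjusted p = 0.482). FANCD2 had 0.08 and 0.04 in sh1-HUMT and sh2-HUMT, FANCA, a core complex subunit, 0.03 and 0.04, and FANCM, the translocase that anchors the core complex, 0.05 and 0.05. With 8.19 CPM in shNC, FANCM had an interval of -0.18 to 0.27 in sh1-HUMT, so a change of the size seen for CHEK1 lay within it. ZNF276 on the opposite strand overlaps 23.6% of the exonic bases of FANCA and had 0.03 and 0.12, neither past the test.

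Of the kinases, CHEK1 was higher in both hairpin groups. CHEK1, which holds the cell cycle when forks stall, had 28.1, 29.4 and 28.1 CPM in sh1-HUMT, 29.6, 27.8 and 26.8 CPM in sh2-HUMT and 25.8, 23.8 and 22.6 CPM in shNC libraries. Both sets of hairpin libraries lay above the controls. Its log2 fold change was 0.25 (0.12 to 0.38, adjusted p = 0.00719) in sh1-HUMT and 0.22 (0.09 to 0.35, adjusted p = 0.0123) in sh2-HUMT, where the call was lost without sh2-HUMT replicate 1 (0.0551). STT3A, a neighbour on the same strand, overlaps 1.22% of the exonic bases of CHEK1, and had -0.02 in sh1-HUMT (adjusted p = 0.605) and fell by 0.11 in sh2-HUMT (adjusted p = 0.00566). ATR, the kinase that activates CHEK1, had -0.05 and -0.01, ATM, which responds to double-strand breaks, 0.02 and 0.02, and its substrate kinase CHEK2 0.07 and 0.10. Those 6 values did not pass. ATM levels were 52.9 ± 4.26 CPM in sh1-HUMT, 52.9 ± 1.01 in sh2-HUMT and 52.2 ± 2.22 in shNC (SD, n = 3).

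In end joining, PRKDC was higher in both hairpin groups and XRCC5 in sh1-HUMT. PRKDC, the catalytic subunit of DNA-dependent protein kinase, had 506, 466 and 498 CPM in sh1-HUMT libraries, 444, 443 and 451 CPM in sh2-HUMT libraries and 412, 389.9 and 407 CPM in shNC libraries. The 3 groups did not overlap one another. Its log2 fold change was 0.28 (0.21 to 0.35, adjusted p = 4.18e-05) in sh1-HUMT and 0.15 (0.08 to 0.22, adjusted p = 0.00441) in sh2-HUMT. With the GC and length offset the sh1-HUMT value was 0.14 (adjusted p = 2.57e-04), and the sh2-HUMT value was 0.05 and did not pass (0.126). XRCC5, the larger Ku subunit, had 356, 355 and 348 CPM in sh1-HUMT, 325, 331 and 331 CPM in sh2-HUMT and 335, 322 and 326 CPM in shNC libraries. Its sh1-HUMT libraries lay above both other groups, with a log2 fold change of 0.11 (0.05 to 0.16, adjusted p = 0.00484), and its sh2-HUMT value was 0.01 (adjusted p = 0.868).

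The Ku partner XRCC6 had values of 0.05 in sh1-HUMT (adjusted p = 0.262) and -0.05 in sh2-HUMT (adjusted p = 0.241). LIG4, the ligase of this route, had 0.15 and 0.16 (adjusted p = 0.289 and 0.249), and XRCC4, its scaffold, 0.03 and -0.07. TP53BP1, which shields ends from resection, had -0.00 and 0.04, and its sh2-HUMT libraries were spread from 51.2 to 65.5 CPM. TUBGCP4 overlaps 28.7% of its exonic bases on the opposite strand and had -0.04 and -0.18, neither past the test. None of these 4 genes passed in either group. The median of the 6 was 0.08 in sh1-HUMT and 0.03 in sh2-HUMT.

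The excision and single-strand break genes held 3 of the 7 genes that passed in both groups. XPC, which finds helix distortions in nucleotide excision repair, had 98.7, 100.1 and 102 CPM in sh1-HUMT, 95.5, 91.0 and 89.4 CPM in sh2-HUMT and 86.3, 83.2 and 84.0 CPM in shNC libraries. Its groups did not overlap, and its log2 fold change was 0.25 (0.18 to 0.32, adjusted p = 1.47e-04) in sh1-HUMT and 0.12 (0.05 to 0.20, adjusted p = 0.0156) in sh2-HUMT. The sh2-HUMT call of XPC was lost without sh2-HUMT replicate 1 (0.0758) and with the GC and length offset (0.0692). An antisense gene overlaps 23.8% of the exonic bases of XPC, and LSM3, which had -0.13 and -0.12 with neither past the test, 6.63%. PARP1, which senses nicks and recruits XRCC1, had 158, 157 and 155 CPM in sh1-HUMT, 151, 151 and 143 CPM in sh2-HUMT and 141, 139.6 and 139.5 CPM in shNC libraries. Its groups did not overlap, and its values were 0.16 (0.10 to 0.22, adjusted p = 8.85e-04) and 0.08 (0.02 to 0.15, adjusted p = 0.0380). For sh2-HUMT, PARP1 lost the call without sh2-HUMT replicate 1 or 2 or any 1 shNC library (0.0644 to 0.138), with the offset (0.103) and with no filter (0.0602).

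ERCC1 moved the other way. It is the partner of the XPF nuclease that cuts on the 5′ side of a lesion, and the window shown for it holds 3 CCAAT boxes. It had 104, 110.1 and 100.3 CPM in sh1-HUMT, 105, 100.04 and 101 CPM in sh2-HUMT and 119, 117 and 113 CPM in shNC libraries, so that all 6 hairpin libraries lay below the controls. It fell by 0.15 on the log2 scale in sh1-HUMT (interval -0.23 to -0.07, adjusted p = 0.00788) and by 0.19 in sh2-HUMT (-0.27 to -0.11, adjusted p = 0.00189), and no alternative setting without a fold minimum ended either call. CD3EAP on the opposite strand overlaps 28.6% of the exonic bases of ERCC1 in the GENCODE annotation, and no source states that counting used strand. CD3EAP stood at 9.08 CPM in sh1-HUMT, 9.56 in sh2-HUMT and 9.65 in shNC, with log2 fold changes of -0.09 and -0.01 that did not pass.

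XRCC1, the scaffold of single-strand break repair, had 65.1, 71.3 and 66.0 CPM in sh1-HUMT, 69.1, 71.3 and 67.0 CPM in sh2-HUMT and 64.1, 63.3 and 59.4 CPM in shNC libraries. Both hairpin groups lay above the controls, with 0.12 in sh1-HUMT (adjusted p = 0.0761) and 0.15 in sh2-HUMT (adjusted p = 0.0253). The sh2-HUMT call was lost without sh2-HUMT replicate 1 or 2 or shNC replicate 3 (0.0644 to 0.0861) and with the offset (0.0555), and with upper-quartile normalization XRCC1 passed in sh1-HUMT too (0.0410). LIG3, the ligase that XRCC1 carries, rose by 0.17 in sh1-HUMT (adjusted p = 0.0130), where its libraries lay above the controls, and had 0.06 in sh2-HUMT (adjusted p = 0.336). Its call was lost without sh1-HUMT replicate 1 (0.0576) and with the offset (0.309). RFFL overlaps 29.1% of the exonic bases of LIG3 on the opposite strand and had -0.04 and -0.08, neither past the test. ERCC2, a helicase of the TFIIH complex, had 0.01 and 0.13 (adjusted p = 0.958 and 0.107). The median of the 6 genes was 0.14 in sh1-HUMT and 0.10 in sh2-HUMT.

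**Figure D4:**
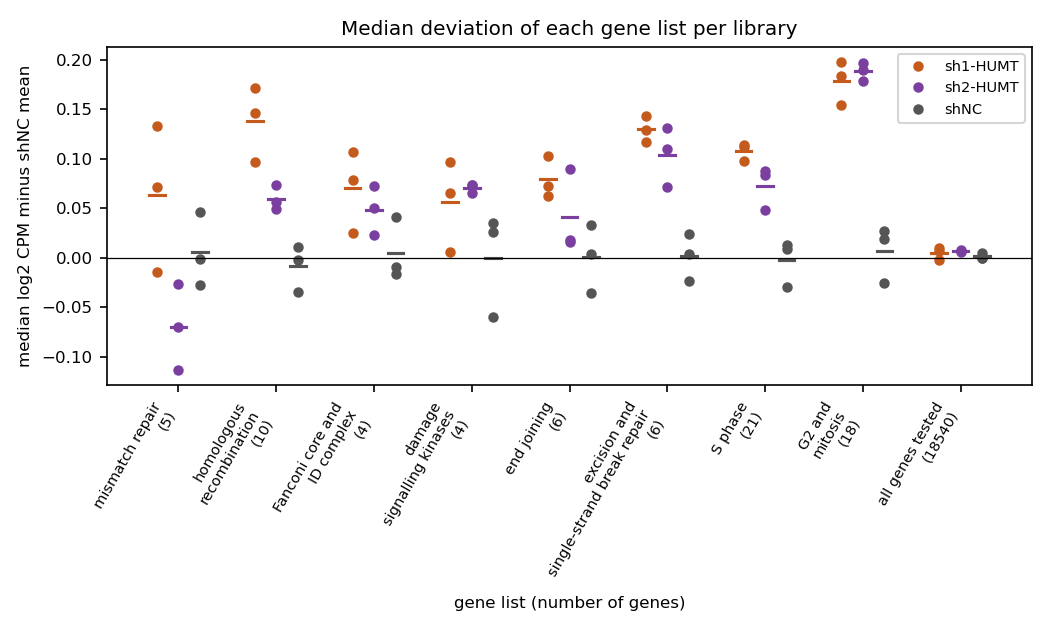
Median over each gene list of log2 CPM minus the shNC mean, 1 point per library and a bar for the mean of 3. Homologous recombination lies at 0.10 to 0.17 in sh1-HUMT, 0.05 to 0.07 in sh2-HUMT and -0.04 to 0.01 in shNC libraries, while mismatch repair libraries of sh1-HUMT overlap those of shNC.

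Set side by side, the routes differed in counts, and those differences were not tested. In sh1-HUMT the genes that passed were 2 of 5 in mismatch repair, 6 of 10 in homologous recombination, 1 of 4 Fanconi genes, 1 of 4 kinases, 2 of 6 in end joining and 4 of 6 in excision repair. In sh2-HUMT they were 2 of 5, 2 of 10, 0 of 4, 1 of 4, 1 of 6 and 4 of 6 in the same order. The shares over all genes tested were 31.9% and 32.5%, or 44.2% and 44.7% at 8 CPM or more, and with 4 to 10 genes a route most of these counts lie near them. Excision repair and homologous recombination had the highest medians in sh1-HUMT, at 0.14 and 0.15, and excision repair in sh2-HUMT, at 0.10. Over all genes tested the medians were 0.00. With the offset for GC content and length this order did not hold. End joining then had the highest median in sh1-HUMT, and excision repair no longer led in sh2-HUMT. The offset ended the calls of BRCA1, BRCA2, BLM, RAD50 and LIG3 in sh1-HUMT. In sh2-HUMT it ended those of PRKDC, XRCC1, PARP1 and XPC, while PMS2 and PALB2 passed.

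Between the hairpins, none of the 35 genes passed (0 of 35, edgeR, beside 0.286% of all genes, or 0.0863% with at least a 1.2-fold change). At an unadjusted p below 0.05 there were 11, all lower in sh2-HUMT than in sh1-HUMT, where 11.8% of all genes were below it, 6.28% lower, and 26 of 35 values were below 0, with a median of -0.05, or -0.03 with the GC and length offset. For 13 genes the libraries of the groups did not overlap (18.4% of all genes did not). PALB2 had 18.9, 20.6 and 18.2 CPM in sh2-HUMT against 22.9, 22.8 and 24.1 CPM in sh1-HUMT, a log2 fold change of -0.27 (-0.41 to -0.14, adjusted p = 0.0947). PRKDC had -0.14 (-0.21 to -0.07, adjusted p = 0.124), and it passed without sh1-HUMT replicate 2, at -0.17 (adjusted p = 0.0224). DESeq2 called 4 genes, all lower in sh2-HUMT, where it called 3.83% of the 9554 genes to which it gave an adjusted p, 2.03% lower: PRKDC (adjusted p = 0.00242), XRCC5 (0.00389), PALB2 (0.0241) and XPC (0.0392). For MSH6, CHEK1 and ERCC1 the differences were -0.05 (-0.10 to 0.01), -0.02 (-0.15 to 0.10) and -0.04 (-0.12 to 0.04).

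**Figure D5:**
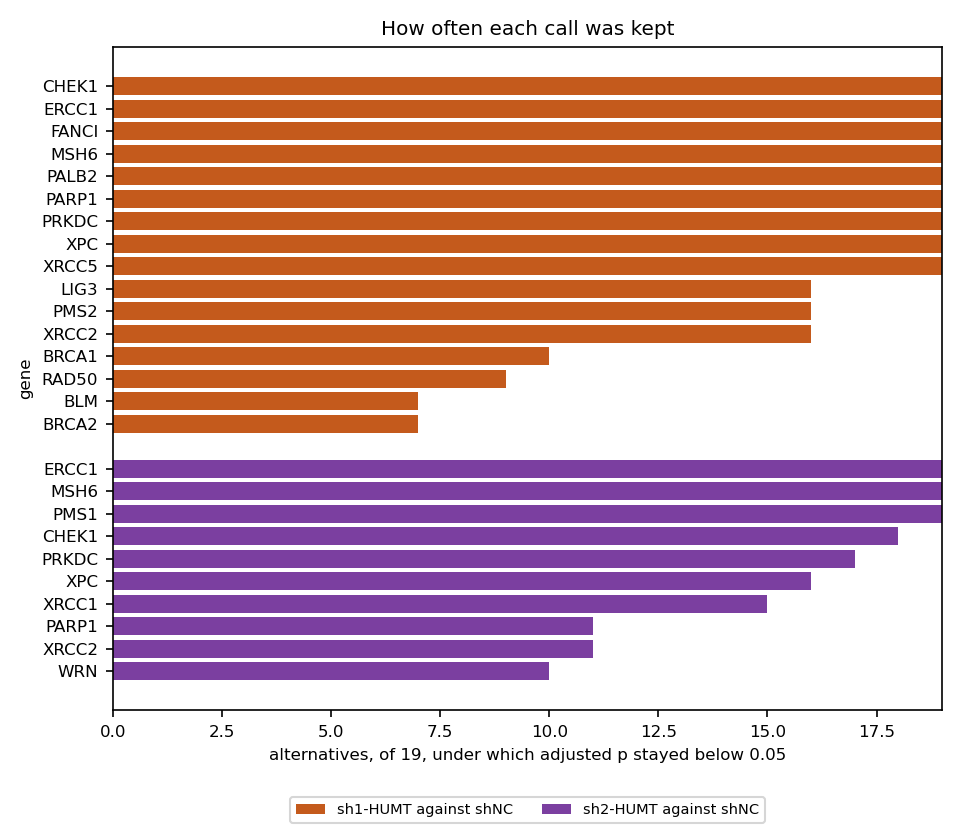
For each of the 26 calls, the number of 19 alternative settings under which adjusted p stayed below 0.05, with the sh1-HUMT calls above the sh2-HUMT calls. The 12 full bars are calls that no setting ended, and BLM and BRCA2 in sh1-HUMT have the shortest bars.

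Further genes of the same routes moved in both directions. In the lists of other genes given here and in the next paragraph, 20.0% to 55.6% passed in sh1-HUMT and 20.0% to 41.7% in sh2-HUMT. Of all genes tested 31.9% and 32.5% did, and 44.2% and 44.7% of those with at least 8 CPM, so most of these counts lie near those shares. Of 11 other mismatch repair and resynthesis genes, 4 rose and 1 fell in sh1-HUMT and 4 rose in sh2-HUMT. LIG1, the replicative ligase, had values of 0.15 and 0.19, the clamp PCNA 0.14 and 0.13, and its loader subunit RFC1 0.20 and 0.16. Of 18 other recombination genes, 2 rose and 4 fell in sh1-HUMT and 3 rose and 3 fell in sh2-HUMT. RBBP8, which starts end resection, stood at 27.0 ± 0.977 CPM in sh1-HUMT, 24.1 ± 0.934 in sh2-HUMT and 31.4 ± 0.603 in shNC (SD, n = 3), a log2 fold change of -0.22 and -0.38. MUS81, a nuclease that cuts branched intermediates, had -0.27 and -0.31, the recombinase paralogue XRCC3 -0.16 and -0.13, and RPA1, which coats single strands, 0.16 and 0.15. All 7 of these genes passed in both hairpin groups, and each pair of values is for sh1-HUMT and then sh2-HUMT.

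Of 9 other Fanconi genes, 4 rose and 1 fell in sh1-HUMT and 3 rose in sh2-HUMT. The core subunit FANCE had 6.58 ± 0.923 CPM in sh1-HUMT, 7.43 ± 0.832 in sh2-HUMT and 4.61 ± 0.349 in shNC, with values of 0.51 and 0.69, while FANCF had 0.21 and 0.24 and the nuclease scaffold SLX4 0.36 and 0.29. Of 12 other signalling genes, 3 rose and 1 fell in sh1-HUMT and 3 rose and 2 fell in sh2-HUMT. WEE1, the kinase that restrains CDK1, was the largest fall named, at 29.02 ± 1.25 CPM in sh1-HUMT, 29.9 ± 2.05 in sh2-HUMT and 45.02 ± 2.27 in shNC, or -0.63 and -0.59. The checkpoint clamp subunit RAD9A had 0.35 and 0.42, the ATR activator TOPBP1 0.17 and 0.17, and MDC1, an adaptor at breaks, 0.26 and 0.19. PAXX, an accessory factor, was the 1 of 5 other end joining genes to pass in either group, at -0.36 and -0.33. Of 31 other excision genes, 5 rose and 7 fell in sh1-HUMT and 4 rose and 6 fell in sh2-HUMT. DDB2, the sensor of ultraviolet damage, had 149 ± 6.52, 153 ± 8.80 and 124 ± 2.999 CPM in sh1-HUMT, sh2-HUMT and shNC, or 0.27 and 0.31. The TFIIH subunit GTF2H1 had -0.32 and -0.49, the glycosylase TDG -0.29 and -0.33, and the XPC partner RAD23B -0.16 and -0.20. All of these other Fanconi, signalling, end joining and excision genes passed in both groups.

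In fixed lists of S phase genes and of G2 and mitosis genes, those that passed the test were all higher in the hairpin groups. WEE1, named above among the signalling genes and in neither list, was lower in both. Of 21 S phase genes, 8 rose in sh1-HUMT and 7 in sh2-HUMT and none fell (edgeR), shares of 38.1% and 33.3%, with medians of 0.12 and 0.06. Their summed level was 995 to 1006 CPM in sh1-HUMT, 983 to 990 in sh2-HUMT and 890 to 914 in shNC libraries. Of all genes tested, 31.9% and 32.5% passed in either direction, and 15.7% and 15.9% were higher. Among genes with at least 8 CPM, 21.0% and 20.8% were higher. Of 18 genes of G2 and mitosis, 12 and 11 rose (66.7% and 61.1%) and none fell, with medians of 0.18 in both and sums of 2131 to 2186, 2129 to 2143 and 1778 to 1868 CPM in the same order. Their part in the values of the repair genes was not tested.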

How the data were processed

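The authors deposited 1 table of estimated counts with 2 decimals per gene and library, not whole numbers for 91.3% of genes (tolerance 0.005). Beside them the authors deposited expression values whose header names no unit. The authors' steps behind these values are not stated per the labels or headers; the deposited values fell with library total as FPKM does, so they are called FPKM here and used only to compare levels between genes. Tools named in the submitters' processing notes, with no role stated, are RSEM 1.2.12, DESeq2 1.4.5, Bowtie2 2.2.5 and HISAT2 2.0.4. The genome build was not given in the sources used here. The design text of the series describes another study, so groups came from the sample titles, and columns were matched by arm and replicate number. The authors' 6 average columns were not used.

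Estimated counts were rounded and tested in edgeR 4.0.16 (R 4.3.3) with TMM, filterByExpr by group (18540 genes kept) and its robust quasi-likelihood test. The 9 libraries shared 1 model with a mean for each group. P-values were adjusted by Benjamini-Hochberg over all genes tested, and intervals cover 95%. The biological coefficient of variation, fitted over all genes, was 7.02%. No replicate pair agreed within sampling noise. Alternatives were DESeq2 1.42.0, other normalizations and filters, only the groups compared, a 1.2-fold minimum, a replicate block, an offset for GC content and transcript length (values for 85.8% of genes tested), removal of the 2 most abundant entries, and each library left out. The steps were also run on simulated data with the same spread for every gene, which checks the code and not the calls given here. Promoters came from RefSeq (GRCh38.p14) and overlaps from GENCODE.

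The repair genes and all lists were chosen with earlier results of these data known. All 35 are accounted for. From each list of other pathway genes, up to 4 that passed the same way in both comparisons were named, those with the smallest larger adjusted p. A few pathway genes were not used here.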

Additional observations from a re-analysis of the deposited data

How the results depend on the processing

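Of 26 calls among the 35 genes, 12 were kept under all 19 alternatives that keep the same call rule and 14 were lost at least once, and of 79 values that did not pass, 9 passed at least once. No called value changed sign. Of the 16, 10, 0 and 7 genes that passed in sh1-HUMT, in sh2-HUMT, between the hairpins and the same way in both, a 1.2-fold minimum left 3, 0, 0 and 0, since most changes were smaller. The DESeq2 Wald test gave 14, 8, 4 and 6. An offset for GC content and length gave 11, 8, 0 and 6. Replicate numbers did not pair the libraries: the correlations of deviations between libraries of the same number ran from -0.0275 to 0.0650, and between different numbers from -0.123 to 0.100. With the replicate block the counts were 16, 8, 0 and 7, of which 14 and 8 were calls of the fit without it: BRCA1 (adjusted p = 0.0717) and BLM (0.0569) were lost and BRIP1 (0.0485) and XRCC1 (0.0478) gained in sh1-HUMT, and XRCC2 (0.0622) and WRN (0.0572) were lost in sh2-HUMT, and with the replicate block and the offset 12, 6, 0 and 5. Leaving out 1 library gave 10 to 16 genes in sh1-HUMT (10 without sh1-HUMT replicate 1), 5 to 10 in sh2-HUMT (5 without sh2-HUMT replicate 1 and 6 without sh2-HUMT replicate 2 or shNC replicate 3), 0 to 1 between the hairpins (1 without sh1-HUMT replicate 2) and 4 to 7 the same way in both (4 without sh2-HUMT replicate 1). The cause of these shifts was not tested, and fewer libraries also widen the intervals. In sh1-HUMT the 95% interval reached 0.12 on the log2 scale to either side in the median gene, 0.05 in the narrowest and 0.23 in the widest. Changes smaller than the reach of a gene's own interval may therefore not have been detectable with 3 libraries per group.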
